A study of Mus musculus with 17 samples.

Results

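Fetal liver cells that carried a control guide (WT) were compared with fetal liver cells edited at Gata1 (Gata1s) that served as controls in the study's other experiments. The members are the 3 WT libraries and 6 Gata1s control libraries, 9 of the 17 libraries of the series, chosen by their labels. All 9 came from mouse fetal livers at stage E12.5-13.5 of a B6J.129 knock-in strain (line Fezh/J), in which the ubiquitous CAG promoter drives Cas9 and the green fluorescent protein EGFP from the Rosa26 locus. WT cells carried the guide sgLuc and the hairpin shLuc, both directed at luciferase, and their labels give no treatment. The LUC controls carried the guide sgGata1 and a luciferase transgene and received doxycycline at 1 µg/mL for 48 h. The sh-ctrl controls carried sgGata1 and a control hairpin and received the same dose for 10 days. Each group has 3 libraries. Nothing in the labels says whether the 3 came from separate embryos or cultures, so the p-values measure only the spread between these libraries, which may be technical.

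GATA1 is a zinc-finger transcription factor needed for erythroid, megakaryocytic, mast cell and eosinophil differentiation. Gata1s is the short form of the protein that lacks the amino-terminal activation domain. In human disease it is found in the megakaryocytic leukaemia and the transient blood disorder of children with trisomy 21, and fetal liver progenitors are the cells in which it is best known to drive growth of megakaryocytic precursors. WT fetal liver progenitors in culture can give rise to granulocytes, monocytes, mast cells, megakaryocytes and red cells.

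The guide against Gata1 is not the only difference. WT and each control set also differ in count table, doxycycline and second transgene. Culture conditions are not given in the sources used here and may differ too. The effects of these cannot be told apart from that of the guide. A gene is therefore called kept where it passed the test against both control sets in the same direction. Total counts were 16362439 to 19212193 per WT library, 31339238 to 38678649 per LUC library and 31992089 to 36030379 per sh-ctrl library. Levels are CPM, a gene's counts per 1000000 counts of the library, and differences are log2 fold changes from edgeR's quasi-likelihood test on the counts, with p-values adjusted by the Benjamini-Hochberg method over all genes tested.

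One control library stood apart. LUC replicate 3 correlated with the WT libraries at 0.824 to 0.837 in log2 CPM over the genes tested, against 0.785 to 0.802 for the other LUC libraries. It held 29.2 CPM of S100a8, where LUC replicates 1 and 2 held 0 and 0.207. Over the 20 neutrophil genes listed for this work it was above all other control libraries for 15, at a median of 1.06% of the WT mean (range 0% to 4.27%). Transcripts of the Y-linked Ddx3y were at 40.5, 50.5 and 64.8 CPM in WT, 0.347, 0.414 and 6.38 in LUC and 30.4, 0.0313 and 2.03 in sh-ctrl, while Xist was at 456 to 1309 CPM over all 9 libraries. Mitochondrially encoded genes took 1.61% to 2.28% of WT counts, 1.81% to 1.96% of LUC counts and 2.53% to 4.54% of sh-ctrl counts. A fit without globin, mitochondrial and rRNA-like genes kept 3973 genes as higher and 3005 as lower, and each library was also left out in turn. Beyond that, the part of these differences in the results was not tested.

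Of 46880 genes in all 3 count tables, 15158 passed the filter on low counts and were tested. Against LUC, 8394 genes were called (55.4%), with 4580 higher in WT (30.2%) and 3814 lower (25.2%). Against sh-ctrl, 9147 were called (60.3%), with 4891 higher in WT (32.3%) and 4256 lower (28.1%). Called in both with the same sign were 3940 genes higher in WT (26.0%) and 3099 lower (20.4%), and 30 genes were called in both with opposite signs. Without LUC replicate 3 the kept genes were 3780 higher and 2789 lower.

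The 2 control sets, both Gata1s, also differ from each other in table, doxycycline and transgene: 1807 genes were called between sh-ctrl and LUC (11.9%). This count depended on single libraries: it was 692, 553 and 751 without LUC replicate 1, 2 or 3 and 1199 without sh-ctrl replicate 3. The median size of the log2 difference over all genes tested was 0.64 for WT against LUC, 0.73 for WT against sh-ctrl and 0.32 between the control sets. For 6630 of the 7039 kept genes (94.2%), the smaller of the 2 WT differences exceeded the difference between the control sets. Kept genes were selected for their WT differences, and the control difference is the gap between those 2. This share was therefore largely set by the selection and is a description. The first principal component of log2 CPM held 81.6% of the variance and separated WT from all 6 control libraries. The second component, with 6.26%, separated LUC from sh-ctrl.

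**Figure D1:**
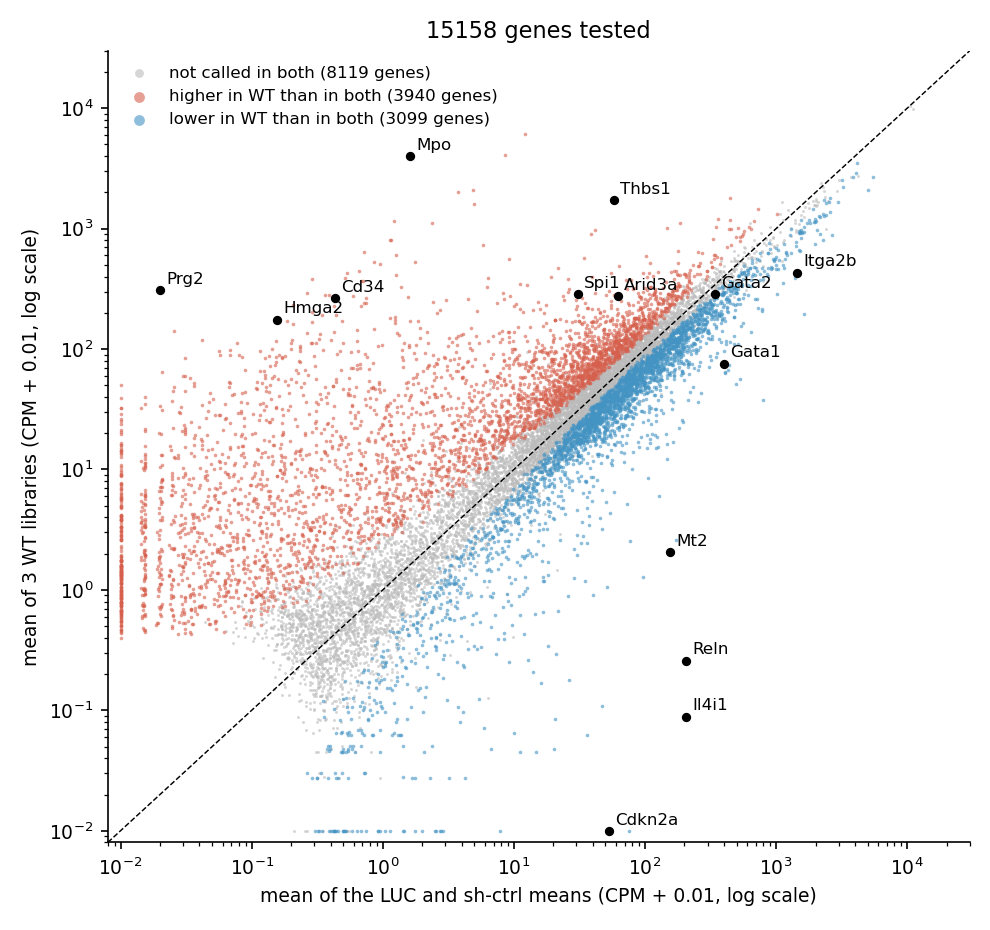
Mean level of each of the 15158 genes tested in the 3 WT libraries (vertical axis) against the mean of the LUC and sh-ctrl means (horizontal axis), both in CPM + 0.01 on log scales, with the 3940 genes called higher and the 3099 called lower in WT than in both control sets in colour. Mpo, Prg2 and Hmga2 lie far above the dashed line of equal levels, and Cdkn2a, Reln, Il4i1 and Mt2 far below it.

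Most kept genes did not overlap between WT and the controls in any library: 3886 of the 3940 higher genes lay above all 6 control libraries and 2663 of the 3099 lower genes below them. Over all genes tested, 30.9% lay above and 19.2% below. Kept genes were selected for their differences in these same libraries, so the counts among them were largely set by the selection and are a description. The smaller difference was at least 1 on the log2 scale for 2834 of the higher genes but for 1028 of the lower ones. No count was found in any control library for 219 of the kept genes higher in WT, and none in any WT library for 38 of the lower genes. The other Gata1s libraries of the series, which carry the Arid3a transgene, the Arid3a hairpin or miR-125b, bring the number of Gata1s libraries to 14. WT lay above all 14 for 3386 of the kept higher genes and below all 14 for 1705 of the kept lower genes. The shares over all genes tested were not computed for the 14 libraries, so these counts are a description too.

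The calls moved with gene length. Among 4 equal classes of gene length, in the shortest (57 to 1907 bases) 14.4% were kept as higher in WT and 24.1% as lower, whereas in the longest (5677 to 84395 bases) 37.0% were higher and 13% lower. After the length trend of each library was removed, 3679 genes were kept as higher and 3436 as lower, and 6220 of the 7039 kept genes (88.4%) stayed kept in the same direction.

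**Figure D2:**
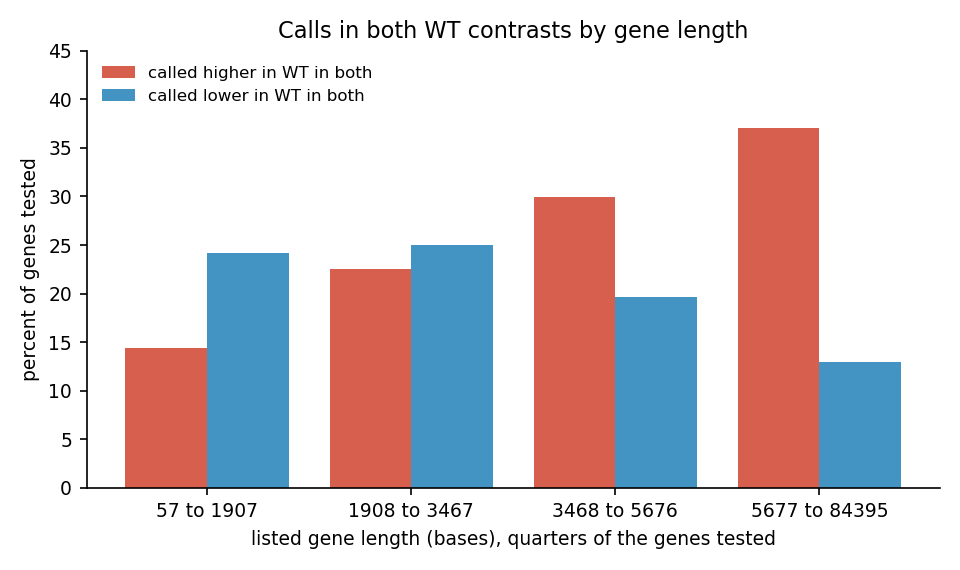
Percent of genes called higher (red) or lower (blue) in WT than in both control sets, in 4 equal classes of listed gene length in bases. The higher share goes from 14.4% to 37.0% and the lower share from 24.1% to 13% between the shortest and the longest class.

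Gata1, the target of the guide (chrX:7959260-7978071 in mm10), was itself lower in WT. Its level was 80.1, 77.5 and 69.2 CPM in the WT libraries, 317, 337 and 320.0 in the LUC libraries and 335, 471 and 607 in the sh-ctrl libraries. All 3 WT libraries lay below every control library, and WT minus LUC was -2.15 ± 0.17 (SE) and WT minus sh-ctrl -2.79 ± 0.18 (SE) on the log2 scale, with adjusted p = 2.44e-06 and 4.67e-07. Counts per gene do not show whether the transcript carries the edit, so they check the labels only by this difference in level. Gata2, the related factor that GATA1 displaces from chromatin during differentiation, was at 306, 296 and 249.8 CPM in the WT libraries, 358, 426 and 472 in the LUC libraries and 331, 165 and 309 in the sh-ctrl libraries. Its ranges overlapped between WT and the controls. WT minus LUC was -0.60 ± 0.22 (SE) (adjusted p = 0.0365), and this call was lost when WT replicate 2 or 3 or LUC replicate 2 or 3 was left out (adjusted p = 0.0727 to 0.119). Against sh-ctrl there was no call (-0.078 ± 0.22 (SE), adjusted p = 0.777), except without sh-ctrl replicate 2, when WT was lower by 0.38 (adjusted p = 0.0447).

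Of the 17 GATA factors and partners listed, 16 were tested, of which 7 were kept as lower in WT and 4 as higher. Over all genes tested 20.4% were kept as lower and 26.0% as higher, so the share of the list kept as higher was near the background. The lower genes were Gata1 and its cofactor Zfpm1 (FOG1), the E-box factor Tal1, its corepressor Cbfa2t3 (ETO2), the repressor Gfi1b, Nfe2 and Klf1. Zfpm1 was at 122, 144 and 120.2 CPM in the WT libraries, 475, 476 and 506 in the LUC libraries and 472, 469.7 and 462 in the sh-ctrl libraries. Tal1 showed the same order, with 113, 122 and 114 CPM in the WT libraries, 453, 466 and 478 in the LUC libraries and 318, 390.4 and 386 in the sh-ctrl libraries. For both genes WT was about 4 times lower, with differences of -1.96 ± 0.10 (SE) and -2.03 ± 0.10 (SE) for Zfpm1 against LUC and sh-ctrl and -2.04 ± 0.10 (SE) and -1.81 ± 0.10 (SE) for Tal1 (adjusted p at most 2.22e-07). Cbfa2t3 was at 60.5 to 77.7 CPM in WT, 250.1 to 304 in LUC and 179.6 to 263 in sh-ctrl. Gfi1b was at 27.7 to 35 CPM in WT, 104 to 111 in LUC and 94.9 to 129 in sh-ctrl, with differences of -1.81 ± 0.13 (SE) and -1.90 ± 0.13 (SE). The listed genes Zfpm1 and Cbfa2t3 both overlap the gene model Gm20388.

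Spi1 (chr2:91082390-91115756), which encodes the myeloid factor PU.1, went the other way. It was at 334, 268 and 259.9 CPM in the WT libraries, 17.5, 17.2 and 22.1 in the LUC libraries and 54.5, 33.5 and 40.2 in the sh-ctrl libraries, and the WT libraries were higher by 3.88 ± 0.20 (SE) and 2.59 ± 0.19 (SE) on the log2 scale (adjusted p = 1.52e-07 and 1.33e-06). Lyl1, Mafg and Bach1 were kept as higher too, by 0.36 to 1.09 over both contrasts. Fli1, Ldb1, Lmo2 and Runx1 were not kept. Some of these calls were lost when 1 library was left out: Klf1 against LUC without WT replicate 3 or LUC replicate 2 (adjusted p = 0.0514 and 0.0586), Mafg against LUC without LUC replicate 1 or 3 (adjusted p = 0.0511 and 0.0637), and Lyl1 against sh-ctrl without sh-ctrl replicate 2 (adjusted p = 0.0724). The median of the list was -0.28 against LUC and -0.22 against sh-ctrl, against 0.027 and 0.036 over all genes tested.

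Of 10 genes listed here as repressed by GATA1, 4 were kept as higher in WT and 1 as lower (3 and 2 without sh-ctrl replicate 2). Over all genes tested 26.0% were kept as higher and 20.4% as lower. Kit, the stem cell factor receptor, was at 253, 321 and 314 CPM in the WT libraries, 21.7, 23.1 and 34 in the LUC libraries and 13, 25 and 38.6 in the sh-ctrl libraries, an increase of 3.45 ± 0.32 (SE) and 3.38 ± 0.32 (SE). Myb was at 388 to 437 CPM in WT, 187 to 202 in LUC and 106 to 207 in sh-ctrl, a difference of 1.06 ± 0.18 (SE) and 1.29 ± 0.18 (SE). Ikzf1, the lymphoid and myeloid factor Ikaros, was higher by 0.66 ± 0.16 (SE) and 1.13 ± 0.16 (SE). Rgs18, a regulator of G-protein signalling abundant in platelets, fell by 0.89 against LUC and by 1.25 against sh-ctrl. The list was chosen from general knowledge and these genes are expressed in many progenitor types. Whether GATA1 represses each of them, Rgs18 included, was not tested.

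Promoters of genes kept in opposite directions are shown for their letters alone, as RNA counts do not show what binds them. Those of Pf4 and Gfi1b, lower in WT, have matches to AGATAA, allowing T as the first and G as the last letter, in capitals. Those of Mpo and Elane, neutrophil genes higher in WT, have matches to GAGGAA, a core of PU.1 sites, in capitals. Each runs from 250 bases before to 50 after the RefSeq start on GRCm38.p6, 5′ to 3′ on the gene's strand. Pf4 lies at chr5:90772185-90772484 (+), Gfi1b at chr2:28621933-28622232 (-), Mpo at chr11:87793534-87793833 (+) and Elane at chr10:79886062-79886361 (+).
Pf4: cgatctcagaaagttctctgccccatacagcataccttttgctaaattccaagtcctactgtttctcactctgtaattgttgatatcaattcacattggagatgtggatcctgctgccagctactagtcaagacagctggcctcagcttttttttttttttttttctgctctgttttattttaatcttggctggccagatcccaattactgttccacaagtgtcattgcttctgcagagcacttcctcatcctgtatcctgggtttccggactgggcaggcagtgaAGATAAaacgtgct
Gfi1b: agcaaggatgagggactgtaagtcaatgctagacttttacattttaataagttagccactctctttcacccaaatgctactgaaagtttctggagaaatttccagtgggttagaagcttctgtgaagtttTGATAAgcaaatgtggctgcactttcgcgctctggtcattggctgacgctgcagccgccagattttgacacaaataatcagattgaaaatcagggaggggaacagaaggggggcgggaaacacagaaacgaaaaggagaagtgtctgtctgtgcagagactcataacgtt
Mpo: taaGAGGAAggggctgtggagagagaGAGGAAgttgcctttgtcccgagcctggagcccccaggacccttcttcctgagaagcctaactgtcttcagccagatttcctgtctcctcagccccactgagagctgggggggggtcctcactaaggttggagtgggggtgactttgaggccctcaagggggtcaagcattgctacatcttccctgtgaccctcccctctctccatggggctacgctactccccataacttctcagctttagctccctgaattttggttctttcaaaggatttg
Elane: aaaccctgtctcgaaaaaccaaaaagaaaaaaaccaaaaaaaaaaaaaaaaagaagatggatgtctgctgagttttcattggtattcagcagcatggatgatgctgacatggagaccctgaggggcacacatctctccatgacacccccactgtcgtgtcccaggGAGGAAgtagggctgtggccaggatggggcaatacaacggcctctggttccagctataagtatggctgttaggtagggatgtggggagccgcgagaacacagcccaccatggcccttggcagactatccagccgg
Pf4 and Gfi1b held 1 GATA match each, 36 bases after and 120 bases before the start, and Pf4 also held 1 match to GAGGAA. Mpo held 2 matches to GAGGAA and Elane 1, and neither held a GATA match. The start of Mpo in RefSeq lies 203 bases from the start listed in the count table. Both strands were searched, overlapping matches were each counted, and GATA and GAGGAA letters may share bases. The GATA letters occurred in 19.8% of the 13035 promoters of genes tested, 20.8% of those of kept higher genes and 19.5% of those of kept lower genes, against 29.6% of the 32544 promoters in the table. GAGGAA occurred in 27.0% of promoters of genes tested, in 30.0% of kept higher and 24.7% of kept lower genes, in 28.1% of the whole table and in 12 of 21 promoters (57.1%) of 19 neutrophil genes. The GATA letters were in 6 of these 21 promoters (28.6%). Of 19 promoters of the GATA factors and partners, 7 held the GATA letters and 7 held GAGGAA (36.8% each). These are matches of letters in a fixed window and no test was made of them.

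In bulk RNA, fewer cells of a type and less RNA per cell cannot be told apart, so the levels below describe the RNA of each library. Of the 3940 kept genes higher in WT, 1353 reached the level the filter asks for (0.313 CPM in 3 libraries) in fewer than 3 of the 6 control libraries, so they passed it only through WT. They include 15 of the 20 neutrophil genes, 11 of 19 monocyte and macrophage genes, 8 of 9 eosinophil genes, 9 of the 15 kept stem and progenitor genes and 7 of the 10 kept fetal program genes. Also among them were all 7 kept dendritic cell genes, the 2 kept B cell genes and the 3 kept hepatocyte genes. The same held for 3 of 5 kept basophil genes and 3 of 4 kept T and NK cell genes. It held for 3 of 9 genes kept as higher of the response to transforming growth factor beta and 2 of 4 of the ATF4 stress response. In the erythroid, mast cell and interferon lists it held for 2 of 5, 2 of 10 and 2 of 22. In the megakaryocyte, stromal, p53 target and histone lists it held for 1 gene each. Such a gene could be tested only with the help of WT libraries, which favours genes higher in WT. The counts and medians of these lists are therefore a description.

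**Figure D3:**
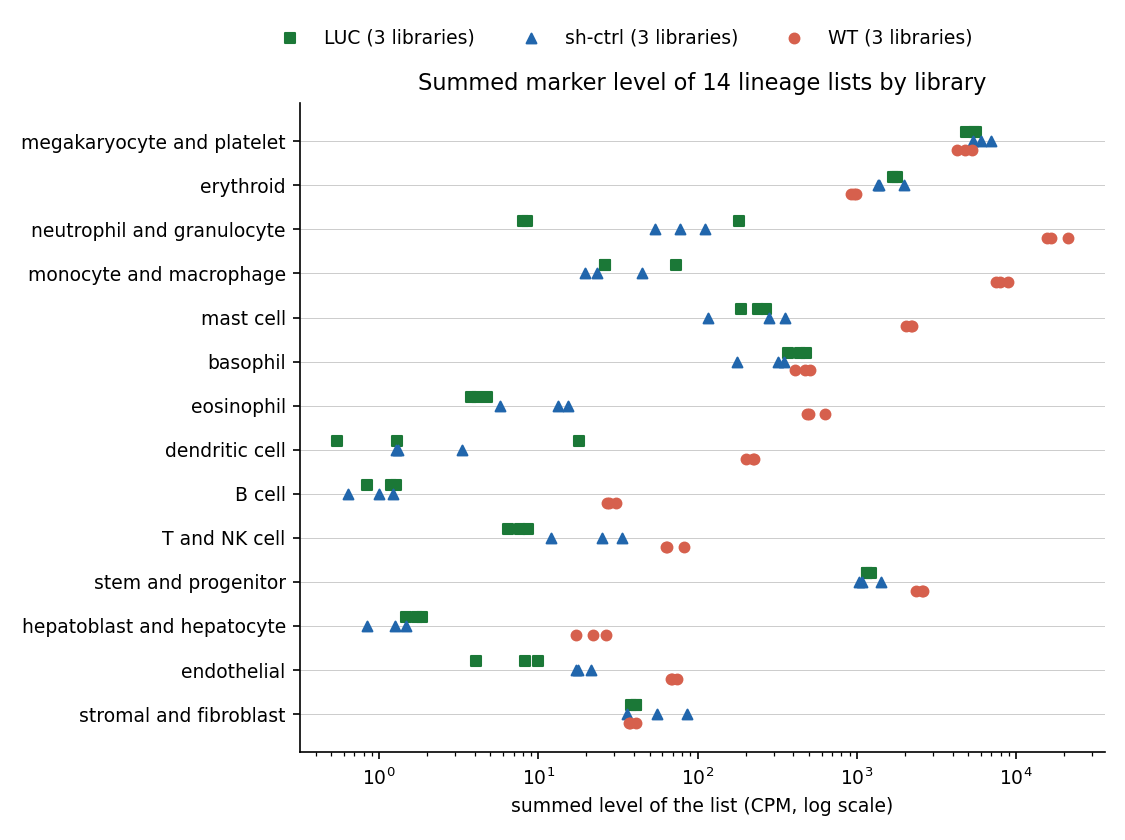
Summed level of each of 14 lineage lists in CPM (log scale) in the 3 LUC, 3 sh-ctrl and 3 WT libraries, 1 symbol per library. The neutrophil list lies at 15614 to 21239 CPM in WT and at 7.98 to 182.8 CPM in the controls, while the megakaryocyte list lies at 4248 to 5253 CPM in WT and overlaps the controls.

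Of 28 megakaryocyte and platelet genes, all tested, 10 were kept as lower in WT, 9 as higher and 9 were not kept. Over all genes tested 20.4% were kept as lower and 26.0% as higher, so the share of the list kept as higher was near the background. The summed level was 4248 to 5253 CPM in WT, 4846 to 5581 in LUC and 5329 to 6975 in sh-ctrl. The median difference was -0.072 against LUC and -0.34 against sh-ctrl. Pf4, the chemokine platelet factor 4, was at 499.9, 351 and 312 CPM in the WT libraries, 1239, 1131 and 1327 in the LUC libraries and 2339, 1038 and 1299 in the sh-ctrl libraries. Itga2b, the alpha-IIb subunit of the platelet fibrinogen receptor, was at 472, 404 and 420.4 CPM in the WT libraries, 1175, 1218 and 1379 in the LUC libraries and 1749, 1446 and 1741 in the sh-ctrl libraries. For both genes every WT library lay below every control library. Their differences were -1.71 ± 0.29 (SE) and -2.17 ± 0.29 (SE) for Pf4 and -1.58 ± 0.12 (SE) and -2.09 ± 0.13 (SE) for Itga2b, with adjusted p of at most 4.50e-04.

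The subunits Gp9, Gp1bb and Gp5 of the von Willebrand factor receptor and the collagen receptor Gp6 were also kept as lower. Gp9 was at 25.1 to 37.2 CPM in WT, 43.2 to 55 in LUC and 89 to 133 in sh-ctrl, with differences of -0.77 ± 0.20 (SE) and -1.96 ± 0.20 (SE). Its call against LUC was lost in a fit of all 17 libraries (adjusted p = 0.0618). The call of Gp1bb against sh-ctrl was lost without WT replicate 2 or 3, LUC replicate 2 or 3 or sh-ctrl replicate 1 or 2 (adjusted p = 0.050 to 0.153), and that of Gp6 against LUC without any WT replicate or LUC replicate 1 or 3 (adjusted p = 0.0516 to 0.115). Gp1ba and Itgb3 were not kept.

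The 9 megakaryocyte genes higher in WT included granule and coagulation proteins. Thbs1, the alpha-granule protein thrombospondin 1 that macrophages also make, was at 1249, 1686 and 2237 CPM in the WT libraries, 58, 45.3 and 80.1 in the LUC libraries and 56.4, 61.8 and 43.9 in the sh-ctrl libraries. It was 27.3 times higher than in LUC and 28.4 times higher than in sh-ctrl (4.77 ± 0.28 (SE) and 4.83 ± 0.28 (SE)). F5, coagulation factor V, was at 33, 57.3 and 50.9 CPM in the WT libraries, 0.0289, 0.103 and 0.255 in the LUC libraries and 0, 0.0313 and 0.167 in the sh-ctrl libraries. Alox12, the platelet lipoxygenase, was at 21.6 to 30.9 CPM in WT, 0.607 to 0.776 in LUC and 0.805 to 2.24 in sh-ctrl. Tubb1, the platelet beta-tubulin, was at 18.5 to 25.8, 0.897 to 2.43 and 0.719 to 2.39 CPM in the same order. Its differences were 3.68 ± 0.46 (SE) and 3.46 ± 0.45 (SE). Vwf, Ppbp, Clec1b, Selp and Ltbp1 were the other genes of the list kept as higher, by 1.33 to 3.77 over both contrasts. The call of Ppbp against sh-ctrl was lost without sh-ctrl replicate 2 or 3 (adjusted p = 0.0705 and 0.0659). Without LUC replicate 3, 9 genes of this list were kept as higher and 8 as lower.

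The erythroid list summed to 919 to 983 CPM in WT, 1690.2 to 1799 in LUC and 1354 to 1966 in sh-ctrl. Of 31 genes listed, 30 were matched and 27 tested, of which 11 were kept as lower in WT and 5 as higher (3 without sh-ctrl replicate 2). The shares over all genes tested were 20.4% lower and 26.0% higher. The defining markers Slc4a1 (band 3) and Alas2 (the first enzyme of haem synthesis) did not pass the filter, with at most 0.245 and 0.367 CPM in any of the 9 libraries. Kel, the Kell blood group protein, was at 11.4 to 11.6 CPM in WT, 42.4 to 49.9 in LUC and 63.5 to 127 in sh-ctrl. The erythropoietin receptor Epor was at 15.9 to 21.5, 38.9 to 39.2 and 45.5 to 48.3 CPM, a difference of -1.09 ± 0.13 (SE) and -1.47 ± 0.13 (SE). The embryonic globin Hbb-bh1 had 0 counts in all 3 WT libraries and 0.347 to 0.672 CPM in LUC and 0.657 to 2.17 in sh-ctrl. WT was thus at least 2.61-fold and 8.66-fold lower, where each such bound sets the group at 0 to 3 counts in its shallowest library. Trim10 had 1 read in WT, 110 in LUC and 249 in sh-ctrl. Ank1 and Ermap, red cell membrane genes, were higher in WT, at 6.73 to 8.32 and 22.6 to 24.4 CPM against at most 0.928 and 2.48 CPM in any control library.

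Neutrophil genes took more WT counts than any other lineage list. All 20 listed genes were tested and kept as higher in WT (26.0% over all genes tested), and also without LUC replicate 3. DESeq2 kept 11 of the 13 to which it gave an adjusted p in both contrasts. Together they took 1.56% to 2.12% of WT counts (15614 to 21239 CPM). In LUC replicates 1 and 2 the sum was 7.98 to 8.46 CPM, in LUC replicate 3 it was 182.8 CPM and in sh-ctrl 53.9 to 112 CPM. The median fitted difference was 8.07 against LUC and 13.94 against sh-ctrl, or 7.96 and 10.43 with the genes at 0 in a control set held at their bound.

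Mpo, the myeloperoxidase of primary granules, was at 4110.3, 4034 and 3836 CPM in the WT libraries, 0.0289, 0.362 and 8.59 in the LUC libraries and 0.599, 0.0313 and 0 in the sh-ctrl libraries. Elane, neutrophil elastase, was at 331, 287 and 258 CPM in the WT libraries, 0, 0 and 0.989 in the LUC libraries and 0.12, 0.219 and 0.194 in the sh-ctrl libraries. S100a8, a calcium-binding protein of mature neutrophils and monocytes, was at 2922, 1733 and 1614 CPM in the WT libraries, 0, 0.207 and 29.2 in the LUC libraries and 0, 0.0313 and 0.0278 in the sh-ctrl libraries. Each WT library was above each control library for the 3 genes, and within LUC replicate 3 the level was the highest of the controls. For Elane WT minus LUC was 9.86 ± 0.66 (SE) and WT minus sh-ctrl 10.49 ± 0.70 (SE) on the log2 scale. For Mpo WT minus LUC was 10.38 ± 1.29 (SE) and WT minus sh-ctrl 14.04 ± 1.55 (SE) on the log2 scale, with adjusted p = 5.66e-05 and 2.19e-05. Gfi1, a repressor needed for granulocyte differentiation, was at 92.5, 85.8 and 76.3 CPM in the WT libraries, 0, 0 and 0.128 in the LUC libraries and 0 in all 3 in the sh-ctrl libraries, at least 905-fold higher than in sh-ctrl. The late surface marker Ly6g was at 4.46, 2.67 and 2.34 CPM in WT with 0 counts in all 6 control libraries, at least 33-fold and 33.7-fold higher.

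The neutrophil gene Prtn3, proteinase 3, was clearly present in the controls, at 804 to 1228 CPM in WT, 5.41 to 10.4 in LUC and 48.6 to 107 in sh-ctrl.

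**Figure D4:**
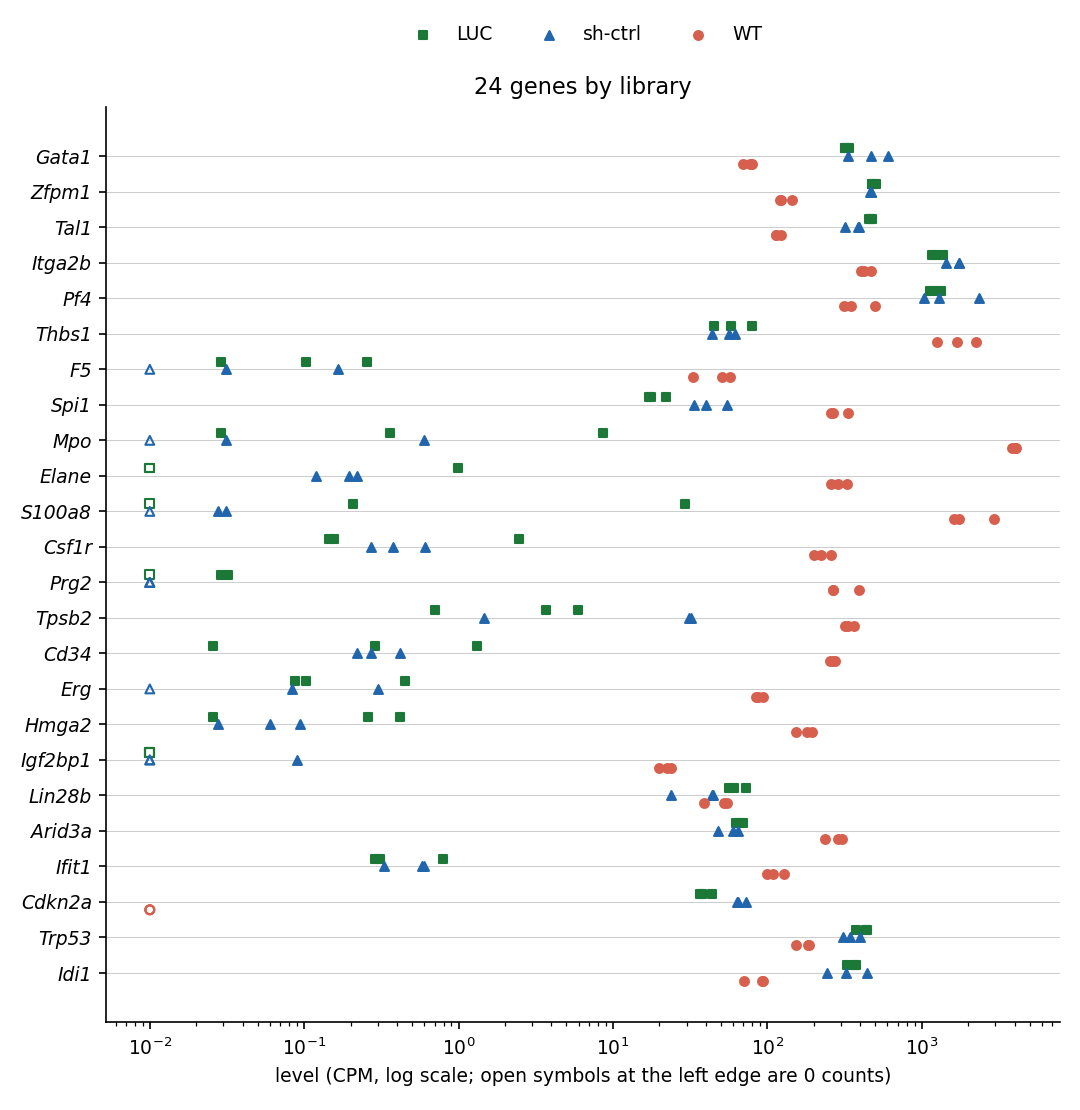
Level of 24 genes in CPM (log scale) in each of the 9 libraries, with open symbols at the left edge for 0 counts. WT lies below all 6 control libraries for the first 5 genes, from Gata1 to Pf4, and above them for the myeloid genes from Spi1 to Tpsb2, while Lin28b overlaps.

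Monocyte and macrophage genes were high in WT as well. Of 22 listed genes, 19 were tested and all 19 were kept as higher in WT (26.0% over all genes tested). The summed levels were 7498 to 8958 CPM in WT, 26.2 to 73.1 in LUC and 19.8 to 44.7 in sh-ctrl. The macrophage genes Vsig4, Cd5l and Timd4 did not pass the filter. Csf1r, the receptor of macrophage colony-stimulating factor, was at 202, 222 and 257 CPM in the WT libraries, 0.145, 0.155 and 2.46 in the LUC libraries and 0.269, 0.375 and 0.611 in the sh-ctrl libraries. Adgre1, which encodes F4/80, was at 76.7, 78.4 and 95.4 CPM in the WT libraries, 0.0578, 0.129 and 0.192 in the LUC libraries and 0, 0.188 and 0.139 in the sh-ctrl libraries. Both were separated from all 6 controls, with differences of 7.98 ± 0.68 (SE) and 8.90 ± 0.73 (SE) for Csf1r and 9.29 ± 0.41 (SE) and 9.38 ± 0.42 (SE) for Adgre1. C1qa, a complement gene of resident macrophages and a defining marker, was near the detection limit even in WT, at 1.71, 0.641 and 2.45 CPM. Cd14 was at 63.6 to 119.7 CPM in WT and at most 0.287 in a control library, and Vcam1 had 348 reads in WT, 1 in LUC and 0 in sh-ctrl.

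All 9 eosinophil genes were kept as higher in WT (26.0% over all genes tested), although the list sums to only 483 to 629 CPM there. With any 1 WT replicate or sh-ctrl replicate 1 or 3 left out, and with DESeq2, 8 of the 9 were kept. Prg2, the eosinophil major basic protein, was at 394, 268 and 268 CPM in the WT libraries, 0.0289, 0 and 0.0319 in the LUC libraries and 0 in all 3 in the sh-ctrl libraries. Epx, eosinophil peroxidase, was at 36.3, 42.1 and 33.3 CPM in the WT libraries, 0 in all 3 in the LUC libraries and 0.0599, 0 and 0.0278 in the sh-ctrl libraries. The interleukin 5 receptor gene Il5ra was at 5.63, 6.03 and 5.47 CPM in WT with 0 counts in all controls. Prg2 rested on 16622 reads in WT against 2 in LUC and 0 in sh-ctrl. The ribonuclease genes Ear6 and Ear1 were at 0 in all controls, with 13.9 to 27.9 and 8.38 to 12.1 CPM in WT. They belong to a family of near-identical copies, so the split of reads among its members is uncertain.

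Mast cell genes were present in some controls as well. Of 15 listed genes, 10 were kept as higher in WT, 1 as lower and 4 were not kept. Over all genes tested 26.0% were kept as higher and 20.4% as lower. Cma1, a mast cell chymase, was at 291, 218 and 201 CPM in the WT libraries, 4.19, 6.57 and 1.37 in the LUC libraries and 22.6, 0.156 and 27.8 in the sh-ctrl libraries. Tpsb2, a tryptase, was at 366, 333 and 317 CPM in the WT libraries, 3.67, 5.97 and 0.702 in the LUC libraries and 31.9, 1.47 and 31.2 in the sh-ctrl libraries. The control libraries differed among themselves by more than 10 times for both genes, with sh-ctrl replicates 1 and 3 the highest and sh-ctrl replicate 2 far below them, and WT lay above all of them. The differences were 5.81 ± 1.05 (SE) and 3.66 ± 0.93 (SE) for Cma1 and 6.54 ± 0.96 (SE) and 3.82 ± 0.83 (SE) for Tpsb2. Without sh-ctrl replicate 2, 10 genes of the list were kept as higher and 2 as lower.

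Mcpt4 was at 89.6 to 102 CPM in WT, 0 to 0.0517 in LUC and 0 to 2.21 in sh-ctrl. Hdc, the enzyme that makes histamine, was at 381, 401 and 324 CPM in the WT libraries, 0.116, 0.698 and 1.34 in the LUC libraries and 1.41, 0.0313 and 0.583 in the sh-ctrl libraries. Ms4a2 and Tpsab1 were higher as well, at 66.7 to 69.6 and 6.09 to 13.7 CPM in WT. Slc18a2, the vesicular monoamine transporter, was the gene kept as lower (-0.87 ± 0.25 (SE) and -1.20 ± 0.25 (SE)), with overlapping ranges.

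Among 6 basophil genes, 5 were kept as higher in WT (26.0% over all genes tested) and Gata2 was not. Without sh-ctrl replicate 2, 1 gene of the list was kept as lower. The proteases Prss34 and Mcpt8 were at 37.4 to 54.2 and 16.4 to 23.6 CPM in WT and at most 0.333 and 0.31 CPM in the 6 controls. Over all 14 Gata1s libraries of the series their highest levels were 53.8 and 39.1 CPM, so WT did not stand apart from all of them. Cd200r3 was at 50.4 to 54.8 CPM in WT and Il4 at 3.65 to 4.53.

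Stem and progenitor genes were mostly higher in WT. Of 20 listed genes, 15 were kept as higher (26.0% over all genes tested), 1 as lower (20.4% over all genes tested) and 4 were not kept. Cd34, the progenitor sialomucin, was at 256, 265 and 276 CPM in the WT libraries, 0.289, 0.0259 and 1.31 in the LUC libraries and 0.269, 0.219 and 0.416 in the sh-ctrl libraries. Erg, an ETS factor of stem cells, was at 86.9, 84.6 and 93.3 CPM in the WT libraries, 0.0868, 0.103 and 0.447 in the LUC libraries and 0.299, 0 and 0.0833 in the sh-ctrl libraries. Each WT library was above every control library, with differences of 8.97 ± 0.54 (SE) and 9.59 ± 0.57 (SE) for Cd34 and 8.69 ± 0.51 (SE) and 9.22 ± 0.54 (SE) for Erg. Hlf, a stem cell factor, was at a mean of 14.5 ± 3.24 CPM (SD, n = 3) in WT and at most 0.192 in a control. Mecom, which encodes Evi1, was at 2.45, 2.35 and 5.47 CPM, with 189 reads in WT, 0 in LUC and 1 in sh-ctrl.

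The homeobox genes Hoxa9 and Hoxa7 were at 11.3 to 13.7 and 5.08 to 5.87 CPM in WT, with at most 1 read of each per control set. The ratio of Hoxa7 in WT to LUC was 574 (95% counting interval 102 to 22748). Meis1, a homeobox cofactor, was the gene of the list kept as lower. It was at 48.5, 56.8 and 63.9 CPM in the WT libraries, 157, 143 and 158 in the LUC libraries and 138, 83.8 and 113 in the sh-ctrl libraries, a difference of -1.48 ± 0.17 (SE) and -1.15 ± 0.17 (SE).

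Dendritic and lymphoid lists were small. Of 12 dendritic cell genes, 7 were kept as higher (11 without LUC replicate 3), where 26.0% of all genes tested were kept as higher. The defining markers Siglech, Xcr1 and Clec9a were at or below 1.25 CPM in every library. Flt3 was at 40.5 to 55.4 CPM in WT and Irf8 at 114 to 119, with 1.28 and 3.42 CPM in LUC replicate 3 and at most 0.0555 and 0.125 CPM in the other controls. Cd74, the invariant chain, was at 28.8 to 38.1 CPM in WT and 6.29 CPM in LUC replicate 3. Zbtb46 was at 1.1 to 3.07 CPM in WT. Of 11 B cell genes, Cd79b and Il7r were kept as higher at 13.1 to 19.1 and 9.42 to 12.4 CPM, while the defining markers Cd79a and Pax5 stayed at or below 0.694 CPM. Cd3e and Ncr1, which define T and NK cells, had 0 counts in all 9 libraries, and Lck was not kept. Tcf7, Cd4, Il2rb and Nkg7 were kept as higher in WT. Nkg7 was at 50.6 to 72.6 CPM in WT, 3.47 to 4.69 in LUC and 7.66 to 29 in sh-ctrl.

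Liver and stromal cells contributed little RNA. The hepatocyte markers Alb and Ttr were at or below 0.155 CPM in every library, and Afp was at 0.587 to 2.26 CPM in WT, 0.983 to 1.16 in LUC and 0.594 to 0.805 in sh-ctrl with no call. Of 16 genes of that list 5 were tested and Dlk1, Trf and Krt18 were kept as higher, at 8.75 to 14.6, 2.08 to 3.12 and 2.94 to 5.32 CPM in WT. For this and the next lists, the shares over all genes tested were 26.0% higher and 20.4% lower. Without LUC replicate 3, or without sh-ctrl replicate 2, 5 of 7 tested genes of the list were kept as higher. The endothelial markers Cdh5 and Stab2 were at or below 0.729 CPM. Kdr, the third defining marker, was at 11.4 to 13.4 CPM in WT against 0.718 ± 0.43 (mean and SD, n = 3) in LUC and 0.209 to 2.42 in sh-ctrl, and Tie1, Plvap and Egfl7 were kept as higher as well. Without LUC replicate 3 the endothelial genes kept as higher were 8 of 8 tested in place of 4 of 5. The call of Egfl7 against sh-ctrl was lost without WT replicate 1 or sh-ctrl replicate 2 (adjusted p = 0.0520 and 0.0646). The stromal markers Dcn and Pdgfra were at 0 or near it. Col1a1 and Tagln were kept as higher, at 0.427 to 0.917 and 3.91 to 4.32 CPM in WT, and Twist1 and Sparc as lower. All 4 calls were lost without LUC replicate 3 (adjusted p = 0.0507 to 0.0622), and those of Col1a1, Twist1 and Sparc also without other single libraries (adjusted p up to 0.136).

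The 10 kept genes with the largest smaller difference in each direction were named by a rule that asked for protein-coding genes of at least 10 CPM, separate ranges and a small difference between the control sets. Higher in WT were Prg2, Mnda, Pla2g7, Ifi44, Sowahc, Alox15, Prg3, Slfn4, Rnf113a2 and Chdh. All but Prg2 and Slfn4 had 0 counts in all 6 control libraries. Mnda, an interferon-inducible nuclear protein of myeloid cells, was at 48.8, 42.9 and 59.9 CPM in WT, at least 528-fold and 539-fold higher. Pla2g7, which degrades platelet-activating factor, was at 39.4, 42 and 36.2 CPM, at least 409.5-fold and 418-fold higher. Alox15, a lipoxygenase of eosinophils and macrophages, was at 27.8, 27.5 and 22.8 CPM. Prg3, a paralog of Prg2, was at 30.7, 23.8 and 21.9 CPM. Slfn4, a schlafen gene of myeloid cells, was at 159, 129 and 139 CPM, with 1 read in LUC and 2 in sh-ctrl.

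Sowahc, Rnf113a2 and Chdh had no count in any of the 14 Gata1s libraries of the series, where Sowahc was at 27.2, 28.6 and 30.8 CPM, Rnf113a2 at 22.1, 27.8 and 21.3 and Chdh at 18.4, 20.9 and 22.3 in WT. The WT table lists 47643 genes and each of the others lists 47069, and whether the gene models of these genes differ between the tables was not tested. Rnf113a2 overlaps Bbof1 and Chdh overlaps Cacna1d, whereas Sowahc overlaps no listed gene.

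Lower in WT were Sprn, Cdkn2a, Il4i1, Reln, Nkx6-1, U2af1l4, Sobp, Atp13a4, Tmem132e and Mt2. Sprn, a prion-like protein gene that overlaps Mtg1, was at 0 in all 3 WT libraries and at 59.1, 69.2 and 48.2 CPM in LUC and 86.9, 54.8 and 138 in sh-ctrl. Reln (chr5:21884454-22344702), the secreted matrix protein reelin, was at 0.428, 0.16 and 0.156 CPM in the WT libraries, 233, 244 and 222 in the LUC libraries and 135, 184 and 209.7 in the sh-ctrl libraries. Every control library lay above 130 CPM and every WT library below 0.5 CPM. Nkx6-1, a homeodomain factor known from pancreas and nervous system, was at 35.3, 42.6 and 36.4 CPM in LUC and 11.7, 44 and 46.2 in sh-ctrl against 3 reads in all of WT, a ratio of 693 (95% counting interval 237 to 3364) and 618 (95% counting interval 211 to 2999). Mt2, a metallothionein, was at 1.96, 1.55 and 2.66 CPM in the WT libraries, 116, 162 and 149.8 in the LUC libraries and 155, 191 and 159.5 in the sh-ctrl libraries, and WT minus LUC was -6.16 ± 0.22 (SE) and WT minus sh-ctrl -6.52 ± 0.22 (SE) on the log2 scale, with adjusted p = 2.21e-08 and 2.01e-08.

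Il4i1, a secreted amino acid oxidase, was at 0.183, 0 and 0.0521 CPM in the WT libraries, 203, 229 and 239 in the LUC libraries and 187, 208 and 174 in the sh-ctrl libraries, and the splicing factor gene U2af1l4 at 0.0612, 0 and 0.0521 CPM in WT and 17.9 to 21.3 in LUC. Both overlap a gene listed only in the WT table, and the part of that overlap in their difference was not tested. Over all genes tested, 132 overlap such a gene, of which 45 were kept as higher (34.1%) and 28 as lower (21.2%). The shares over all genes tested were 26.0% and 20.4%, so the lower share was near the background. Atp13a4, a P-type ATPase, was at 0 to 0.122 CPM in WT and 20.2 to 21.3 and 16.4 to 22.4 in LUC and sh-ctrl. Sobp was at 0 to 0.245 CPM in WT, 40.4 to 51.6 in LUC and 20.9 to 72.4 in sh-ctrl. Tmem132e varied among the controls, with 46, 4.91 and 8.41 CPM in sh-ctrl and 0.107 to 0.245 in WT.

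The neighbouring cell cycle inhibitor genes Cdkn2a and Cdkn2b had almost no counts in WT. Cdkn2a (chr4:89274471-89294653), which encodes p16Ink4a and p19Arf, had 0 counts in all 3 WT libraries, 38, 43.8 and 36.9 CPM in LUC and 63.5, 72.5 and 64.9 in sh-ctrl. WT was at least 216-fold lower than LUC and at least 365-fold lower than sh-ctrl. Over the 14 Gata1s libraries it ranged from 21 to 133 CPM. Its neighbour Cdkn2b (p15Ink4b) had 1 read in WT, 153 in LUC and 188 in sh-ctrl. Of 10 D cyclins and CDK inhibitors, 5 were kept as lower in WT, namely these and Cdkn2c, Cdkn1a and Ccnd3, and 1 as higher, Cdkn1c (2 without sh-ctrl replicate 1 or 3). The shares over all genes tested were 20.4% lower and 26.0% higher. Cdkn2c (p18Ink4c) was at 13, 13.6 and 11.4 CPM in the WT libraries, 29.3, 25.9 and 24.3 in the LUC libraries and 30.1, 41.7 and 43.7 in the sh-ctrl libraries. Ccnd3, a D cyclin, was at 234 to 304 CPM in WT, 485 to 533 in LUC and 575 to 619 in sh-ctrl. Cdkn1c, an imprinted gene, was at 3.26 to 4.22 CPM in WT and at most 1.77 in a control, and overlaps a gene listed only in the WT table.

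Trp53 was lower in WT, and so were 8 of 18 of its targets (20.4% over all genes tested). Its level was at 186, 185 and 155 CPM in the WT libraries, 378, 443 and 435 in the LUC libraries and 307, 397 and 344 in the sh-ctrl libraries, and WT minus LUC was -1.30 ± 0.13 (SE) and WT minus sh-ctrl -1.16 ± 0.13 (SE) on the log2 scale, with adjusted p = 1.14e-05 and 2.33e-05. The targets kept as higher were 2 (26.0% over all genes tested), and the median of the list was -0.37 against LUC and -0.78 against sh-ctrl. Zmat3, an RNA-binding protein, was at 14.7, 17.6 and 18 CPM in the WT libraries, 56.7, 67 and 59.2 in the LUC libraries and 63.7, 53.9 and 69.1 in the sh-ctrl libraries. Bbc3, the pro-apoptotic protein Puma, was at 34.4, 30.6 and 31.2 CPM in the WT libraries, 104, 113 and 103 in the LUC libraries and 117, 145 and 135 in the sh-ctrl libraries. Both lay below every control, with differences of -1.91 ± 0.13 (SE) and -2.05 ± 0.13 (SE) for Zmat3 and -1.77 ± 0.11 (SE) and -2.21 ± 0.11 (SE) for Bbc3. Phlda3 was at 5.94 to 10.4 CPM in WT, 32.6 to 46.7 in LUC and 36.9 to 51.9 in sh-ctrl. Cdkn1a (p21), the best known target, was at 75.6 to 110.3, 143 to 163 and 212 to 252 CPM. Mdm2 was not kept (-0.064 ± 0.11 (SE) and -0.49 ± 0.11 (SE)). The targets Plk2 and Gdf15 were higher. The call of Gdf15 was lost with DESeq2 (adjusted p = 0.0607 and 0.0629) and without WT replicate 2 or 3, LUC replicate 1 or 3 or any sh-ctrl replicate (adjusted p up to 0.154). Plk2 was at 7.83, 6.89 and 25.7 CPM in WT and at most 1.5 in a control. WT replicate 3 was about 3 times the other WT libraries for Plk2.

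Of 28 cell cycle genes, 9 were kept as lower, 3 as higher and 16 not kept, with a median of -0.38 against LUC and -0.12 against sh-ctrl. The shares over all genes tested were 20.4% lower and 26.0% higher. Tyms, thymidylate synthase, was at 89.5, 83.6 and 75.6 CPM in the WT libraries, 169, 182 and 172 in the LUC libraries and 124, 168 and 132 in the sh-ctrl libraries. Birc5 (survivin) and the mitotic kinase Plk1 differed by -0.67 ± 0.12 (SE) and -0.65 ± 0.12 (SE) against LUC and by -0.79 ± 0.12 (SE) and -0.85 ± 0.12 (SE) against sh-ctrl. Pcna, the replication clamp, was at 398 to 450.3 CPM in WT and 594 to 622 and 512 to 623 in LUC and sh-ctrl. Top2a, Bub1 and Cenpf were kept as higher, and no longer so once the length trend was removed, when 11 genes were kept as lower and 0 as higher. The calls of Bub1 and Cenpf against LUC were also lost without WT replicate 2 or 3, LUC replicate 2 or 3 or sh-ctrl replicate 1 or 2 (adjusted p = 0.0523 to 0.209). The proliferation marker Mki67 was not kept.

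Genes of the fetal growth program were higher in WT, except 1. Of 11 listed genes, 10 were kept as higher (26.0% over all genes tested) and Lin28b was not. Hmga2, a chromatin protein of fetal stem cells, was at 152, 180.3 and 195 CPM in the WT libraries, 0.26, 0.0259 and 0.415 in the LUC libraries and 0.0599, 0.0938 and 0.0278 in the sh-ctrl libraries. Igf2bp2, an RNA-binding protein, was at 46, 65.9 and 61.8 CPM in the WT libraries, 0.0578, 0.0259 and 0 in the LUC libraries and 0.0599, 0 and 0 in the sh-ctrl libraries. The imprinted RNA H19 was at 57, 70.7 and 51.2 CPM in WT, 0 in all 3 LUC libraries and 0.12, 0 and 0 in sh-ctrl, and Igf2 was at 4.1, 5.87 and 6.09 CPM with 0 counts in all 6 controls. For Hmga2, WT minus LUC was 9.56 ± 0.37 (SE) and WT minus sh-ctrl 11.28 ± 0.42 (SE) on the log2 scale. H19 and Igf2 were at least 623-fold and 55.9-fold higher than in LUC.

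Lin28b, the repressor of let-7 microRNAs, was at 39, 52.6 and 55 CPM in the WT libraries, 73, 61 and 56.5 in the LUC libraries and 23.6, 44.6 and 43.6 in the sh-ctrl libraries. Its ranges overlapped and neither contrast was called (-0.42 ± 0.22 (SE), adjusted p = 0.125, and 0.23 ± 0.22 (SE), adjusted p = 0.386). Against LUC it was called lower in WT without sh-ctrl replicate 1 in the fit (adjusted p = 0.0180), with the length trend removed (adjusted p = 0.0366) and with no filter beyond 1 count in any library (adjusted p = 0.0281). The paralog Lin28a was at 16.8 to 17.7 CPM in WT and at most 0.192 in a control. Igf2bp3 was at 66.6 to 95.3, 54.3 to 59.4 and 30.7 to 32.8 CPM in WT, LUC and sh-ctrl, and its call against LUC was lost in a fit of all 17 libraries (adjusted p = 0.0679). The fitted median of the list was 9.56 against LUC and 9.18 against sh-ctrl, or 6.22 and 7.52 with genes at 0 held at their bound.

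Arid3a (chr10:79927043-79955018), the DNA-binding protein that other libraries of the series manipulate, was higher in WT than in either control set. It was at 236, 286 and 304 CPM in the WT libraries, 66.3, 62.8 and 69.5 in the LUC libraries and 47.9, 60 and 65.1 in the sh-ctrl libraries. The lowest WT library lay above the highest control library, and WT minus LUC was 2.01 ± 0.13 (SE) and WT minus sh-ctrl 2.09 ± 0.13 (SE) on the log2 scale, with adjusted p = 4.79e-07 and 3.57e-07. This is about 4 times in both contrasts, and WT lay above all 14 Gata1s libraries, whose highest level was 81.7 CPM. Arid3a and Trp53 were listed together with genes of microRNA and hairpin processing and silencing, 8 genes in all. Of the 8, Arid3a was kept as higher and Trp53 and Drosha as lower. Over all genes tested 26.0% were kept as higher and 20.4% as lower, so the lower share of the list was near the background. Without WT replicate 1, 2 genes of the list were kept as higher. Drosha, the nuclear microRNA-processing enzyme, was at 53.2, 73.1 and 74.6 CPM in the WT libraries, 135, 141 and 139 in the LUC libraries and 86.9, 112 and 115 in the sh-ctrl libraries, while Dicer1, Ago1, Ago2, Dgcr8 and Xpo5 were not kept.

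Interferon-response genes were higher in WT without exception among those listed. All 22 were tested and kept as higher (26.0% over all genes tested). Their median was 4.03 against LUC and 3.72 against sh-ctrl. The summed level was 2387 to 2626 CPM in WT, 242 to 306 in LUC and 262 to 327 in sh-ctrl. Ifit1, which binds viral RNA, was at 109, 128 and 99.5 CPM in the WT libraries, 0.289, 0.31 and 0.798 in the LUC libraries and 0.329, 0.594 and 0.583 in the sh-ctrl libraries. Oasl2 was at 180.0, 208 and 206 CPM in the WT libraries, 1.65, 1.14 and 4.88 in the LUC libraries and 2.54, 3.16 and 2 in the sh-ctrl libraries. Each WT library exceeded every control by more than 30 times for both genes. Ifit3 was at 42.6 to 43.5 CPM in WT, 0.103 to 0.383 in LUC and 0.0898 to 0.188 in sh-ctrl, with differences of 7.53 ± 0.35 (SE) and 8.09 ± 0.37 (SE). Ifi44 was at 26.7, 35.7 and 35.2 CPM in WT and 0 in all controls, at least 339.7-fold and 347-fold higher. Myeloid cells express several of these genes, and the myeloid lists moved with them, whose part in these values was not tested.

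Of 10 genes of MHC class I presentation, 8 were kept as higher in WT (26.0% over all genes tested) and none as lower. The 8 fell to 6 without WT replicate 1 or 3, LUC replicate 1 or sh-ctrl replicate 2 or 3. Without WT replicate 2 it was 7. B2m, the light chain, was at 1811, 1804 and 1797 CPM in the WT libraries, 405, 388 and 475 in the LUC libraries and 554, 438 and 431 in the sh-ctrl libraries, higher by 2.05 ± 0.14 (SE) and 1.76 ± 0.14 (SE). The heavy chain H2-D1 was at 978 to 1129.5 CPM in WT, 309.9 to 406 in LUC and 281 to 432 in sh-ctrl. Tapbp, the tapasin of the peptide-loading complex, and Nlrc5, the transactivator of class I genes, were higher by 2.16 ± 0.11 (SE) and 2.40 ± 0.22 (SE) against LUC and 1.79 ± 0.10 (SE) and 2.50 ± 0.22 (SE) against sh-ctrl. Tap2 and Psmb10 were not kept.

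Genes of cholesterol synthesis were lower in WT. Of 18 listed and tested genes, 14 were kept as lower (20.4% over all genes tested), none as higher and 4 were not kept. The median was -0.95 against LUC and -0.96 against sh-ctrl. Idi1, isopentenyl-diphosphate isomerase, was at 70.3, 93.4 and 92.9 CPM in the WT libraries, 374, 328 and 368 in the LUC libraries and 445, 244 and 322 in the sh-ctrl libraries. Lss, lanosterol synthase, was at 75.9, 72.5 and 76.1 CPM in the WT libraries, 263, 240.5 and 266 in the LUC libraries and 196, 168 and 163 in the sh-ctrl libraries. Both fell below all controls, by 2.11 and 1.82 against LUC on the log2 scale (adjusted p = 8.64e-06 and 3.24e-07). Mvd and Fdft1 differed by -1.63 ± 0.13 (SE) and -1.24 ± 0.11 (SE) against LUC and by -1.67 ± 0.13 (SE) and -1.61 ± 0.11 (SE) against sh-ctrl. The regulator Srebf2 was not kept, and the count of 14 stayed the same without LUC replicate 3 and with the length trend removed.

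**Figure D5:**
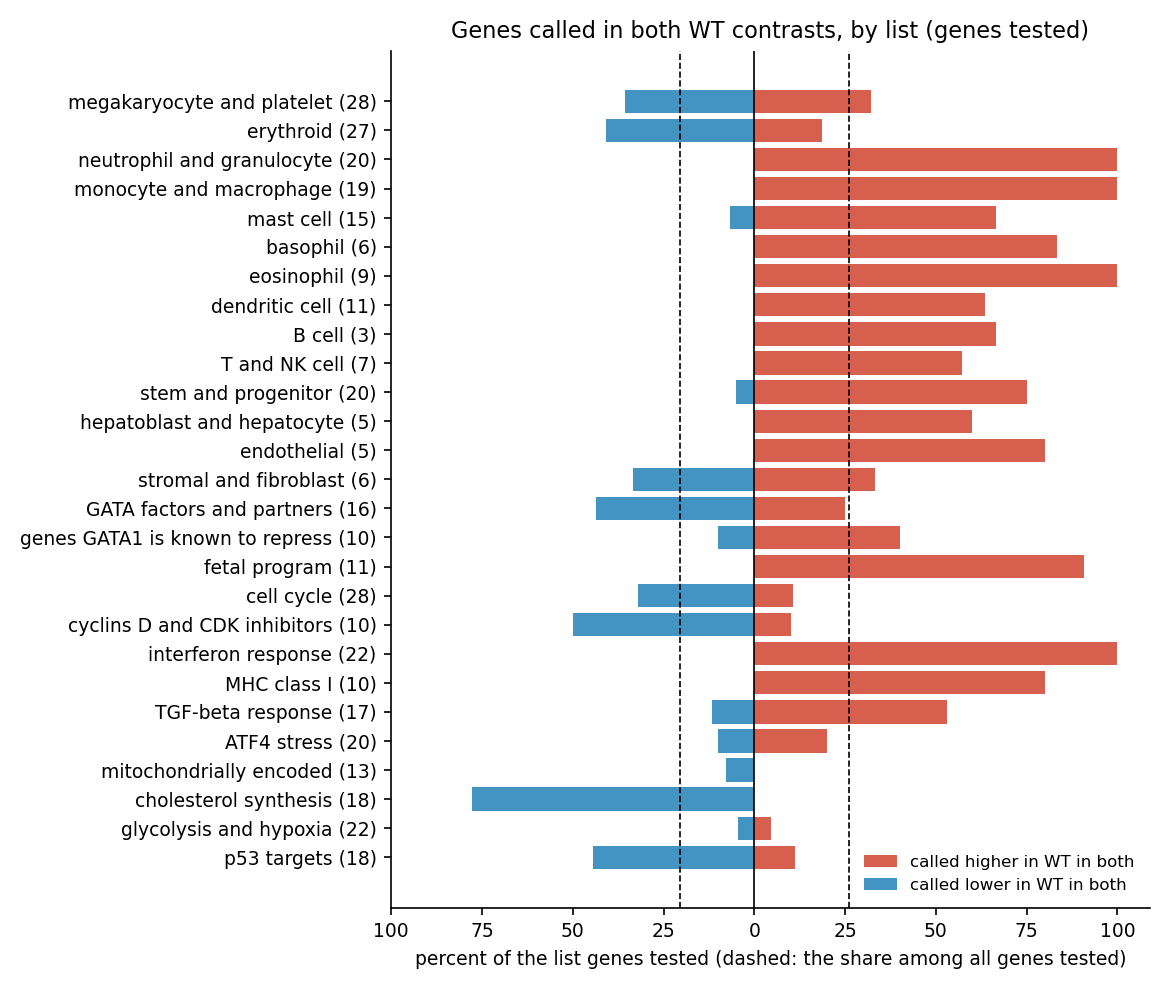
Percent of the tested genes of each list called higher (red, right) or lower (blue, left) in WT than in both control sets, with the number tested in brackets and dashed lines at the shares over all genes tested (26.0% higher, 20.4% lower). The neutrophil, monocyte, eosinophil and interferon lists lie at 100% higher, and cholesterol synthesis has the largest lower share, 14 of 18 genes.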

How the data were processed

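The series deposited 3 tables of read counts per gene. Per the submitters' processing notes, the authors used fastp, HISAT2 2.0.5 and featureCounts with the genome mm10; the counting of strand is not given in the sources used here. The deposited counts were used as they stand. The tables list 47643 (WT) and 47069 genes, and the 46880 genes with the same Ensembl identifier in all 3 were joined. Total counts per library ranged from 16362439 to 38678649, and CPM values are shares of the joined total. All value columns were matched to samples.

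Tests used edgeR 4.0.16 in R 4.3.3: 1 quasi-likelihood fit of the 9 libraries by group, with TMM scaling, the default filter on low counts, Benjamini-Hochberg adjustment over 15158 genes and a threshold of 0.05. The fit was tested on simulated data. A kept gene passed against both LUC and sh-ctrl in 1 direction. SE is the log2 difference divided by the root of the F statistic. Beside a group with no count, a fold is a bound from 3 counts per library, and beside 1 to 3 counts it is a ratio of CPM with its 95% counting interval. These bounds and intervals cover counting error only.

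The members and gene lists were chosen with earlier results of these data known. Named genes were Gata1, Gata2 and Arid3a, the 10 genes per direction described in the results, up to 4 kept genes per list by the smaller difference, and the defining markers of each lineage. Other list genes given with values were chosen for their known role, after their values were seen. Some genes these rules name are not reported here. Promoters came from RefSeq on GRCm38.p6. The alternatives were scaling, filters, DESeq2 1.42.0, other sets of samples, a replicate block, equal depth, a fold threshold and leaving out each library. Genes without overlap and removal of the length trend were added after seeing the data.

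Libraries of different groups share replicate numbers in the labels, but those with the same number did not deviate together (correlations of -0.053 to 0.084).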

Additional observations from a re-analysis of the deposited data

How the results depend on the processing

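The 5 counts of called genes were recomputed under 23 alternatives. With genes that overlap no other listed gene alone (7572 tested in place of 15158), 4304 genes were called against LUC, 4648 against sh-ctrl and 969 between the control sets, with 2050 kept as higher and 1539 as lower. With a log2 difference of at least 1 the counts were 4597, 5226 and 716, with 1028 kept as lower. DESeq2 called 2944 genes between the control sets in place of 1807, and the cause was not tested. Leaving out 1 library at a time gave 7219 to 9090 genes against LUC, 8159 to 9351 against sh-ctrl, 3521 to 4066 kept as higher and 2570 to 3416 kept as lower. Between the control sets it gave 553 to 2407, with 692 without LUC replicate 1, 553 without LUC replicate 2, 751 without LUC replicate 3 and 1199 without sh-ctrl replicate 3. The other counts stayed within 1.5 times their reported value. With library totals alone, the median over all genes moved to 0.07 against LUC and 0.20 against sh-ctrl. With the replicate number as a block, 3791 genes were kept as higher and 2998 as lower, and 94.4% of the kept genes stayed kept, but the numbers do not pair the libraries. Reversals over the genes given with values were few. Gata2 against sh-ctrl became 0.082 with library totals alone, and ranged from -0.38 to 0.072 with 1 library left out, above 0 without WT replicate 3, sh-ctrl replicate 1 or sh-ctrl replicate 3. Lin28b against sh-ctrl ranged from -0.053 (without sh-ctrl replicate 1) to 0.35 (without WT replicate 1). Mdm2 against LUC became 0.014 with at least 10 counts in every library, and Cenpf against sh-ctrl became -0.12 with the length trend removed. WT libraries hold fewer counts than the controls (16362439 to 19212193), which limits what low levels in WT can show.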

Other observations

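Of 18 listed genes of the response to transforming growth factor beta, 17 were tested. Of these, 9 were kept as higher in WT (26.0% over all genes tested) and 2 as lower (20.4% over all genes tested). Only through WT did 3 of the 9 pass the filter, so the count is a description. The median of the list was 1.13 against LUC and 0.77 against sh-ctrl. Tgfbi, a secreted matrix protein that macrophages make, was at 73, 71 and 71.4 CPM in the WT libraries, 0, 0 and 0.766 in the LUC libraries and 0 in all 3 in the sh-ctrl libraries. Id2, an inhibitor of E-box factors, was at 70.9 to 87.6 CPM in WT, 3.7 to 6.77 in LUC and 9.47 to 12.9 in sh-ctrl. Pmepa1, a feedback inhibitor of the pathway, was lower in WT at 1.65, 1.33 and 2.08 CPM in the WT libraries, 12.3, 13.8 and 13.2 in the LUC libraries and 15.7, 29.5 and 24.8 in the sh-ctrl libraries, and the ligand Tgfb1 differed by -0.99 ± 0.12 (SE) and -1.33 ± 0.12 (SE). The myeloid lists moved in the same libraries, and their part in these values was not tested.

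In other lists many genes differed between the control sets. Of the 13 mitochondrially encoded genes, 11 were called between sh-ctrl and LUC, with a median of 1.30 for sh-ctrl minus LUC, and only mt-Nd1 was kept in WT, as lower, a call lost against LUC with the length trend removed (adjusted p = 0.189) and without WT replicate 1 (adjusted p = 0.0527). Without sh-ctrl replicate 1 or 2, 2 of the 13 were kept as lower. Of 22 genes of glycolysis and hypoxia, 11 were called between the control sets (median 0.95). Only the hexokinases were kept in WT (a second gene was kept as lower without WT replicate 1 or sh-ctrl replicate 1): Hk2 was higher by 1.86 ± 0.29 (SE) and 1.68 ± 0.29 (SE), and Hk1 lower, at 222 to 253 CPM in WT, 318 to 327 in LUC and 313 to 365 in sh-ctrl. Of 20 genes of the ATF4 stress response, 4 were kept as higher and 2 as lower, both shares below those over all genes tested, and Atf4, Ddit3 and Asns were not kept. Leaving out any 1 sh-ctrl replicate left 2 kept as higher, and leaving out WT replicate 1 or 3 or LUC replicate 1 or 3 left 3. Leaving out any 1 WT or LUC replicate or sh-ctrl replicate 3 left 1 kept as lower. Chac1, which degrades glutathione, was at 26.1, 19.8 and 12.6 CPM in the WT libraries, 3.59, 1.68 and 2.55 in the LUC libraries and 4.31, 7.44 and 5.03 in the sh-ctrl libraries, and Shmt2, a mitochondrial enzyme of serine use, was at 303 to 319 CPM in WT, 506 to 548 in LUC and 397 to 539 in sh-ctrl.

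Of 20 replication-dependent histone genes, whose RNA has no poly(A) tail, 16 were tested, with 2 kept in each direction. Over all genes tested 26.0% were kept as higher and 20.4% as lower, so both shares of the list were below the background. The genes kept as lower fell to 0 without WT replicate 2 or 3 or LUC replicate 1 or 2, and to 1 without LUC replicate 3. Of 8 structural non-coding RNAs, 5 were tested, and Malat1 and Rn7sk were kept as higher (and 1 gene as lower without WT replicate 1 or 2 or sh-ctrl replicate 1). Malat1 was at 729.5, 287 and 258 CPM in the WT libraries, 96.1, 55 and 59.9 in the LUC libraries and 130.2, 112 and 189.8 in the sh-ctrl libraries. No gene of the sex-linked list was kept, but 4 of its 5 genes were kept as higher without sh-ctrl replicate 1, 2 as higher with no filter beyond 1 count in any library, and 1 as lower with the length trend removed.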
